A study of Mus musculus with 6 samples.

Results

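The genes described here encode the proteins of the cytosolic ribosome in mouse liver. They were chosen by name, from platform symbols that begin with Rpl or Rps and a digit, or that read Rplp0, Rplp1, Rplp2 or Rpsa, leaving out the S6 kinase genes and pseudogenes. The rule found 50 genes among the 18194 genes that had a probe set of their own. Of these, 21 encode proteins of the small subunit and 22 of the large subunit, 6 are paralogs with a name derived from a ribosomal protein (Rpl22l1, Rps27l, Rpl7l1, Rpl39l, Rps4l and Rpl3l), and 1, Rps19bp1, encodes a binding partner of a ribosomal protein.

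RNA was from livers of male C57BL6/J mice, an inbred strain, aged 6 to 8 weeks at the start, and was hybridised to Affymetrix Mouse Genome 430 2.0 arrays. Each of the 6 groups was 1 array of RNA pooled from 3 to 4 livers. In the 2-month study the groups were a fast-food diet containing canertinib at an estimated 80 mg/kg per day, the fast-food diet alone, and chow. In the 5-month study they were the fast-food diet with canertinib injected intraperitoneally at 80 mg/kg, the fast-food diet with injections of the vehicle PBS, and chow, for which no injection is named. Injections were given on 5 days per week for the last 5 weeks. The fast-food diet held 21% fat by weight (42% of kcal), 0.2% cholesterol and 34% sucrose, and the drinking water held 18.9 g/L glucose and 23.1 g/L fructose. Canertinib inhibits the kinase of the epidermal growth factor receptor EGFR and of related ERBB receptors. Route and length of treatment differed together between the studies. The arrays carried hepatocyte transcripts, as labelled: all 6 hepatocyte markers with a probe set, of 10 listed, were above the floor defined below.

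Ribosomal proteins join ribosomal RNA in the subunits that translate messenger RNA, and a growing cell spends much of its transcription on them. In mammals most of their mRNAs start with a C and a run of pyrimidines, the 5′ terminal oligopyrimidine or TOP motif, through which mTORC1 signalling controls their translation. Because the proteins are needed in matched amounts, their mRNAs are usually abundant and move as a group.

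The start regions are shown for this motif, which the rule on names did not use. In RefSeq's GRCm38.p6 annotation, 44 of the 50 genes had a promoter sequence. Windows of 15 bases on either side of the annotated start were searched on the gene's strand for a C followed by C or T bases, in a run of at least 6. Such a run was present in 25 of the 44 genes (56.8%), against 6883 of 27025 genes with a promoter (25.5%). The windows below run 5′ to 3′, with the longest such run in capitals, for genes with large differences between canertinib and fast food alone.
Rpl22l1, chr3:28805493-28805522, plus strand: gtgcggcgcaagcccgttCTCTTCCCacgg
Rpl35, chr2:39005117-39005146, minus strand: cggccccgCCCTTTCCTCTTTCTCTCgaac
Rpl13a, chr7:45128731-45128760, minus strand: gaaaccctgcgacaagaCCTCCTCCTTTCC
Rps10, chr17:27635230-27635259, minus strand: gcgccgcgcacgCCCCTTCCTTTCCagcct
Rps6, chr4:86857353-86857382, minus strand: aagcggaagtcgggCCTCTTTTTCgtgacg

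Of the genes above the floor (defined below) on all arrays, the 23 with a run differed between canertinib and fast food alone by a median of 0.61 in the 2-month and 0.49 in the 5-month study. The 17 without one had medians of 0.46 and 0.49. These medians are a description, with no test. The search rests on the annotated start, and the starts used in these livers were not measured. The next 4 windows show genes without a run at both ends of the differences, and a gene with a run. Rps28 and Rpsa had no run of this length in the window and were among the 6 genes with the highest mean differences. Rpl7l1, which had the lowest mean difference of the genes above the floor on all arrays, had none either. Rps27, whose difference had opposite signs in the 2 studies, had a run.
Rps28, chr17:33824548-33824577, minus strand: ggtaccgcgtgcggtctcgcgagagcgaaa
Rpsa, chr9:120127751-120127780, plus strand: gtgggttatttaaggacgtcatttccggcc
Rpl7l1, chr17:46782642-46782671, minus strand: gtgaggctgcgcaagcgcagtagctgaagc
Rps27, chr3:90213634-90213663, minus strand: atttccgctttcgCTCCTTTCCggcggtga

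In the 100 bases upstream of the start, on both strands, CCGGAA was present in 34.1% of the 44 genes and in 8.36% of all genes. GGGCGG was present in 36.4% against 27.3%, and TATAAA in 4.55% against 6.57%. A match is a match of letters and says nothing of binding.

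Values below are MAS5 signals on a linear scale, and differences are log2 of the first group's signal minus log2 of the second's. Signals under 221.4, the median of all values, were raised to that floor, and a log2 difference of 0.585 is 1.5-fold. The floor was exceeded by 47 of the 50 genes on some array and by 45 on all 6. Rpl14, Rps16 and Rpl39l were at the floor on every array, Rpl3l exceeded it on 1 array and Rps4l on 3. Probe sets differ in brightness, so levels are compared between arrays and never between genes.

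With canertinib, ribosomal protein genes had higher signals than with fast food alone in both studies. At 2 months 42 of the 50 genes were higher and 4 were lower, and the median difference was 0.50. Of all 13989 measured genes, 46.3% were higher and 46.6% lower. At 5 months 42 were again higher and 4 lower, with a median of 0.43, where 45.3% of all measured genes were higher and 46.5% lower. The median over all measured genes was 0 in both studies. Among 1876 other genes whose mean signals lay between the lower and upper quartile of these genes' (1965 to 13583), the medians were -0.11 at 2 months and 0.03 at 5 months. In bulk tissue a change in the proportion of cells and a change in the RNA per cell cannot be told apart.

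At least 1.5-fold higher signals were found for 20 of the 50 genes at 2 months, where 10.9% of all measured genes were, and 2 genes were at least 1.5-fold lower, where 10.6% were. At 5 months 13 were at least 1.5-fold higher (8.22% of all measured genes) and 0 were lower (9.26%). At least 2-fold were Rpl22l1, Rpl35 and Rpl4 at 2 months (3.55%) and Rpl22l1 at 5 months (2.19%). Higher signals in both studies were found for 40 genes (25.9% of all measured genes) and lower ones in both for Rps27l and Rpl7l1 (27%). The 11 genes at least 1.5-fold higher in both studies (3.08%) were Rpl22l1, Rpl35, Rps28, Rpl27a, Rpl13a, Rpsa, Rps10, Rps6, Rps18, Rplp0 and Rps29. Both canertinib arrays lay above all 4 other arrays for 34 of the 50 genes, against 10.4% of all measured genes.

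**Figure D1:**
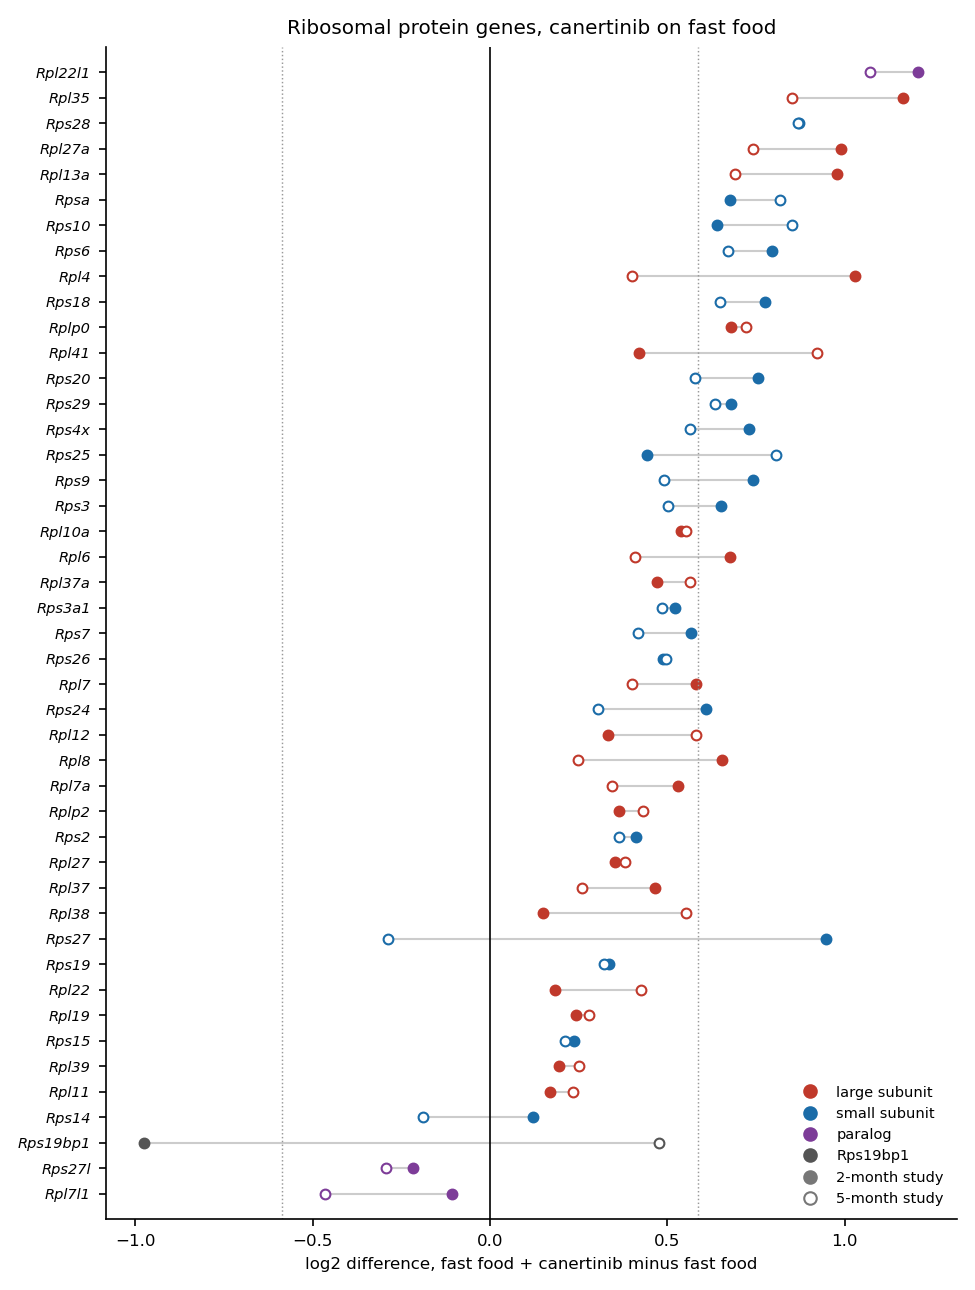
Log2 difference in signal between fast food with canertinib and fast food alone for the 45 genes above the floor on all 6 arrays, ordered by their mean. Filled circles are the 2-month and open circles the 5-month study, colours give the class, and dotted lines mark 1.5-fold; each circle is 1 array against 1 array. Most circles lie right of 0, and Rps27l and Rpl7l1 lie left of it in both studies.

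A limma fit over all 6 arrays, with study as a block, tested the mean effect of the treatments over both studies. It called 1 of the 47 tested genes higher with canertinib than with fast food alone at a Benjamini-Hochberg adjusted p under 0.05, where 0.407% of all measured genes were called, and 0 lower (0.307%). At an unadjusted p under 0.05, 28 were higher (7.24% of all measured genes) and 0 lower (7.53%). The fit had 2 residual degrees of freedom, and its error contains any difference of the treatment effects between the studies. With 1 array a group, no difference within a study has a replicate check or a test.

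Rpl22l1, the gene called, encodes a paralog of the large subunit protein Rpl22. Its signals at 2 months were 4072 with canertinib, 1764 on fast food alone and 2822 on chow. At 5 months they were 5285 with canertinib, 2513 on fast food alone and 3937 on chow. The fast-food array was the lowest and the canertinib array the highest in each study, and both canertinib arrays lay above the other 4. The difference between canertinib and fast food alone was 1.21 at 2 months and 1.07 at 5 months, 2.31-fold and 2.10-fold. The fitted change was 1.14 ± 0.12 (SE), and limma's adjusted p was 0.0319, from 1 array a group in each study. Between canertinib and chow the differences of 0.53 and 0.42 were not called, with an adjusted p of 0.162 by limma. Against fast food alone Rpl22l1 passed the threshold in 5 alternative fits, with adjusted p-values of 0.00901 to 0.0289. Without the variance trend, without the study block and with the mean over probe sets its adjusted p was 0.0977, 0.153 and 0.0814.

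Rpl22 itself, the RNA-binding protein for which the paralog is named, differed less. It had 10811 with canertinib, 9527 on fast food alone and 8438 on chow at 2 months. At 5 months it had 11847, 8823 and 9491 in the same order of groups. Its differences of 0.18 and 0.43 between canertinib and fast food alone had an adjusted p of 0.442 in the limma fit.

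Rpl35 encodes a protein at the rim of the exit tunnel, through which the growing chain leaves the ribosome. It had 5143 with canertinib, 2296 on fast food alone and 3877 on chow at 2 months, and 6945, 3853 and 3567 in that order of groups at 5 months. The canertinib arrays were the highest in both studies, while the fast-food array was the lowest at 2 months only. The differences of 1.16 and 0.85 had an adjusted p of 0.139 in the limma fit. All 6 probe sets of Rpl35 were higher with canertinib at 2 months and 5 of 6 at 5 months. The dimmest of them, whose name carries no suffix for shared sequence, gave 0.12 at 2 months and -0.05 at 5 months.

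Rpl19, Rpl22, Rpl38 and Rpl39 were the other genes of the exit tunnel rim with a probe set of their own. They were also higher with canertinib in both studies, so that 5 of 5 were, against 25.9% of all measured genes. Rpl38, a large subunit protein whose loss in mice alters translation of Hox mRNAs, had 21261 with canertinib, 19166 on fast food alone and 18452 on chow at 2 months. Its signals at 5 months were 26527, 18079 and 19527 in that order, and the difference between canertinib and fast food alone was 0.15 at 2 months and 0.55 at 5 months. Rpl39, with differences of 0.19 and 0.25, was among the 6 lowest by mean of the 45 genes above the floor on all arrays.

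Proteins of the stalk, the flexible arm of the large subunit that recruits elongation factors, were higher in 3 of 3 cases in both studies. Rplp0, which anchors the stalk, had 17499 with canertinib, 10918 on fast food alone and 12006 on chow at 2 months. Its 5-month signals were 16164 with canertinib, 9810 on fast food alone and 10502 on chow. Both canertinib arrays stood above the other 4 arrays, and the differences of 0.68 and 0.72 had an adjusted p of 0.133 by limma. Rplp2, one of the acidic stalk proteins, differed by 0.36 and 0.43. Rpl12, at the base of the stalk, was dim at 322.6 to 505.7 and differed by 0.33 and 0.58.

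Other large subunit genes varied in how alike the studies were. Rpl13a, which in human cells is also described as a regulator of inflammatory mRNAs, had 15413 with canertinib, 7827 on fast food alone and 11478 on chow at 2 months. At 5 months Rpl13a had 16954 with canertinib, 10507 on fast food alone and 10982 on chow. Its differences of 0.98 and 0.69 had an adjusted p of 0.134 by limma. Of its 4 probe sets, 3 were higher and 1 lower at 2 months, and 4 were higher at 5 months. The sets not used gave 0.62, 0.70 and -0.05 at 2 months. Rpl27a was dim at 2 months, with 440.6 with canertinib, 221.9 on fast food alone and 301.4 on chow. It was brighter at 5 months, with 1152, 688.4 and 918.6 in the same order. Its 2 chow arrays differed by 1.61 between the studies, more than its differences of 0.99 and 0.74 between canertinib and fast food alone.

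Rpl4, a core protein of the large subunit, differed by 1.03 at 2 months and 0.40 at 5 months. Its 2-month canertinib array stood apart at 23084, against 11316 on fast food alone and 11828 on chow. The corresponding 5-month signals were 15513, 11749 and 11528. Rpl41, the smallest ribosomal protein, showed the opposite order of sizes, 0.42 at 2 months and 0.92 at 5 months. Rpl11, which with Rpl5 and the 5S RNA can bind MDM2, was also among the 6 lowest by mean of those 45 genes, at 0.17 and 0.23.

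In the small subunit the median difference between canertinib and fast food alone was 0.64 at 2 months and 0.50 at 5 months over 21 genes, of which 20 were higher at 2 months. At 5 months 18 were higher, and Rps14 and Rps27 were lower. In the large subunit the medians were 0.47 and 0.42 over 22 genes, with 21 higher in each study. The remaining genes, Rps16 in the small and Rpl14 in the large subunit, were at the floor.

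The head of the small subunit is the domain that swivels as transfer RNAs move on. Its 10 genes with a probe set of their own had medians of 0.65 and 0.61. In each study 9 of them were higher, against 46.3% and 45.3% of all measured genes. Rps28 had 22630 with canertinib, 12378 on fast food alone and 16669 on chow at 2 months. At 5 months Rps28 had 29764 with canertinib, 16299 on fast food alone and 17800 on chow. Its difference was 0.87 in each study with an adjusted p of 0.138 by limma, and its 3 probe sets were higher in both studies. Rps10 differed by 0.64 and 0.85, with all 6 of its probe sets higher in both. Rps19, mutated in human Diamond-Blackfan anaemia, differed by less, 0.33 and 0.32.

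Rpsa, a small subunit protein also known as a laminin receptor, had 8615 with canertinib, 5392 on fast food alone and 6982 on chow at 2 months. It had 11002 with canertinib, 6238 on fast food alone and 8052 on chow at 5 months. The arrays had the same order as for Rpl22l1, and the differences of 0.68 and 0.82 came closest to the threshold after it, with an adjusted p of 0.0927 by limma. Rps6, the substrate of the S6 kinases, had 1007 with canertinib, 580.3 on fast food alone and 716.2 on chow at 2 months. Its 5-month signals were 1053, 661.8 and 667.8 in that order, and the differences of 0.80 and 0.67 had an adjusted p of 0.199. Both canertinib arrays stood above the other 4 for Rps6.

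The probe sets that represent Rps14 and Rps27 were lower with canertinib at 5 months. Rps14, near the mRNA exit of the small subunit, had 13811 with canertinib, 12704 on fast food alone and 15162 on chow at 2 months. It had 13289 with canertinib, 15155 on fast food alone and 16436 on chow at 5 months, and its differences were 0.12 and -0.19. A second, dimmer probe set of Rps14 gave 0.085 and 0.39, so that the 2 sets had opposite signs at 5 months. Rps27, a zinc-finger protein of the small subunit, had 1732 with canertinib, 898.1 on fast food alone and 1240 on chow at 2 months. Its 5-month signals were 1456 with canertinib, 1778 on fast food alone and 1821 on chow. Its differences of 0.95 and -0.29 had opposite signs, and whether they differ was not tested.

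The paralogs did not all go one way. Of the 6, Rpl22l1 was higher with canertinib in both studies and Rps27l and Rpl7l1 were lower in both. Rps27l, a paralog of Rps27 that in human cells is induced by p53, had 7613 with canertinib, 8842 on fast food alone and 10128 on chow at 2 months. It had 8781 with canertinib, 10761 on fast food alone and 10713 on chow at 5 months. Both canertinib arrays lay below the other 4 arrays, as for 2 of the 50 genes and 10.4% of all measured genes. Its differences of -0.22 and -0.29 had an adjusted p of 0.490 in the limma fit, and all 3 of its probe sets were lower in both studies.

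Rpl7l1, a paralog of Rpl7, had 1072 with canertinib, 1154 on fast food alone and 1160 on chow at 2 months. Its signals at 5 months were 826.5, 1140 and 1076 in that order, and the differences were -0.11 and -0.46. Its other 2 probe sets were higher with canertinib at 2 months and lower at 5 months. Rpl7, the gene it is named for, differed by 0.58 and 0.40. Rps4l was at or near the floor on most arrays, and its differences between canertinib and fast food alone are bounds. Its X-linked counterpart Rps4x differed by 0.73 and 0.56.

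**Figure D2:**
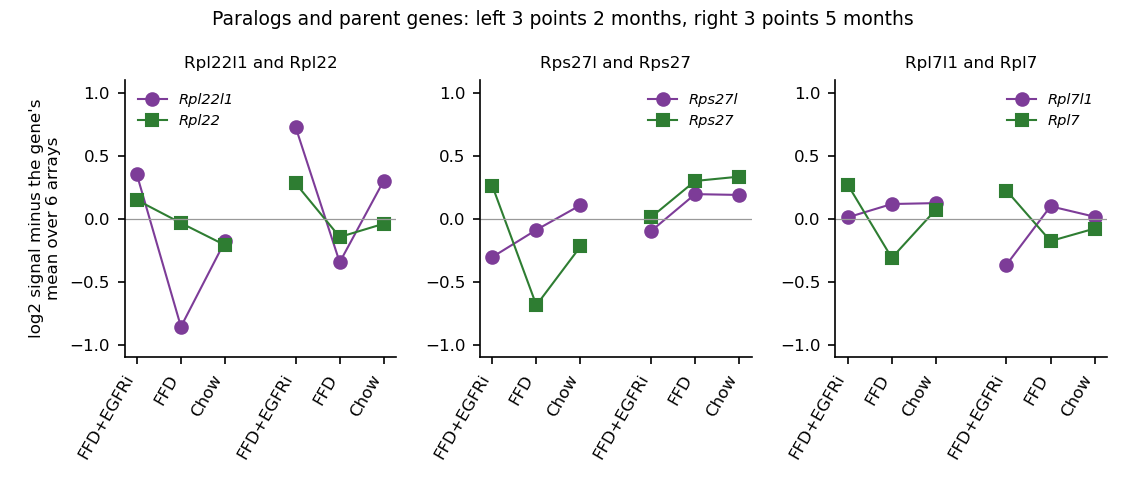
Log2 signal of 3 paralogs (purple circles) and of the genes they are named for (green squares), each minus its own mean over the 6 arrays, with the 2-month study on the left of each panel and the 5-month study on the right. Rpl22l1 spans more of the axis than Rpl22, and Rps27l has its lowest signals on the 2 canertinib arrays.

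Rps19bp1, whose product binds Rps19 and is not a structural protein, was the only gene at least 1.5-fold lower at 2 months that was above the floor on all arrays. It had 278.0 with canertinib, 546.2 on fast food alone and 509.5 on chow at 2 months. At 5 months it had 645.4 with canertinib, 463.8 on fast food alone and 286.3 on chow. The differences between canertinib and fast food alone were -0.97 and 0.48, and its 2 chow arrays differed by -0.83, 5 months minus 2 months.

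Fast food alone differed less from chow. At 2 months 10 of the 50 genes were higher and 37 lower, with a median of -0.14, where 45.5% of all measured genes were higher and 46.6% lower. At 5 months 17 were higher and 29 lower, with a median of -0.06, against 43% and 49.1% of all measured genes. At least 1.5-fold, 1 gene was higher (7.51% of all measured genes) and 2 lower (7.03%) at 2 months, and 1 higher (8.45%) and 1 lower (7.57%) at 5 months. Lower signals in both studies were found for 24 genes, where 26.9% of all measured genes had them, and higher ones in both for 5 (23.3%). The limma fit called 0 of 47 genes in either direction, with 0 higher and 3 lower (Rpl22l1, Rps26 and Rpsa) at an unadjusted p under 0.05, where 5.43% and 4.44% of all measured genes were. The adjusted background was 0.0286% higher and 0% lower. Rpl22l1 had the lowest adjusted p in this comparison too, with differences of -0.68 and -0.65 and an adjusted p of 0.202 by limma. Rpl35 was lower at 2 months, -0.76, and not at 5 months, 0.11. This comparison uses the same fast-food arrays as the one above.

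Canertinib on fast food was also set against chow. At 2 months 40 of the 50 genes were higher and 6 lower, with a median of 0.30, where 45.2% of all measured genes were higher and 48.4% lower. At 5 months 41 were higher and 5 lower, with a median of 0.33, against 43.3% and 48.4% of all measured genes. At least 1.5-fold higher were 6 at 2 months (10.6% of all measured genes), with 1 lower (10.1%), and 11 at 5 months (8.92%), with 0 lower (10%). At least 2-fold higher at 5 months were Rpl41 and Rps19bp1 (2.82%). Both studies gave higher signals for 39 genes (25.8%) and lower ones for 3 (30.3%). The limma fit called 0 of 47 genes (0.558% of all measured genes were called higher and 0.207% lower). At an unadjusted p under 0.05, 15 were higher (7.88%) and 0 lower (7.72%).

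Rps9, a small subunit protein that contacts the mRNA entry channel, had the lowest adjusted p against chow, 0.0909 by limma. It had 8424 with canertinib, 5036 on fast food alone and 4808 on chow at 2 months, and 8158, 5804 and 4956 in that order at 5 months. Its differences from chow were 0.81 and 0.72, while those of fast food alone from chow were 0.07 and 0.23. A dimmer probe set of Rps9 gave -0.39 and 0.75 for canertinib against chow and -0.88 and 0.31 for fast food alone against chow, the opposite sign at 2 months in both. Rpl41 had 29035 with canertinib, 21702 on fast food alone and 19013 on chow at 2 months. At 5 months Rpl41 had 28793 with canertinib, 15202 on fast food alone and 11690 on chow, a difference from chow of 1.30.

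Between the chow arrays, 5 months minus 2 months, the median over the 50 genes was -0.02. There 1 gene, Rpl27a, was at least 1.5-fold higher (5.54% of all measured genes) and 3, Rpl37, Rpl41 and Rps19bp1, were lower (6.7%).

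**Figure D3:**
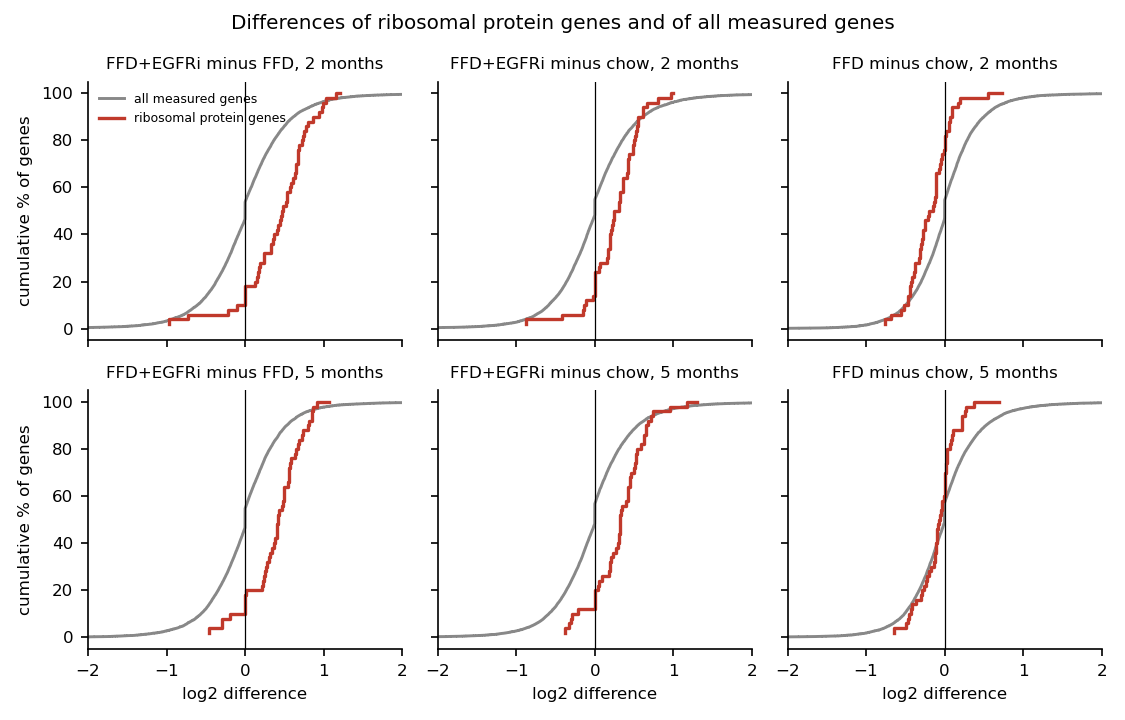
Cumulative percent of genes against the log2 difference, for the 50 ribosomal protein genes (red) and all 13989 measured genes (grey), in 3 comparisons (columns) at 2 months (top) and 5 months (bottom). The red curve lies right of the grey one over most of its length in the 4 panels with canertinib, with medians of 0.50, 0.43, 0.30 and 0.33, and left of it for fast food against chow at 2 months, with a median of -0.14.

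Among the 45 genes above the floor on all arrays, 20 had their highest signal of 6 on the 2-month canertinib array and 21 on the 5-month one. The lowest of 6 was on a fast-food array for 33, of which 26 were on the 2-month array. The median log2 signal, relative to each gene's mean over the arrays, was 0.27 with canertinib, -0.26 on fast food alone and -0.06 on chow at 2 months. At 5 months the medians were 0.31 with canertinib, -0.17 on fast food alone and -0.09 on chow.

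**Figure D4:**
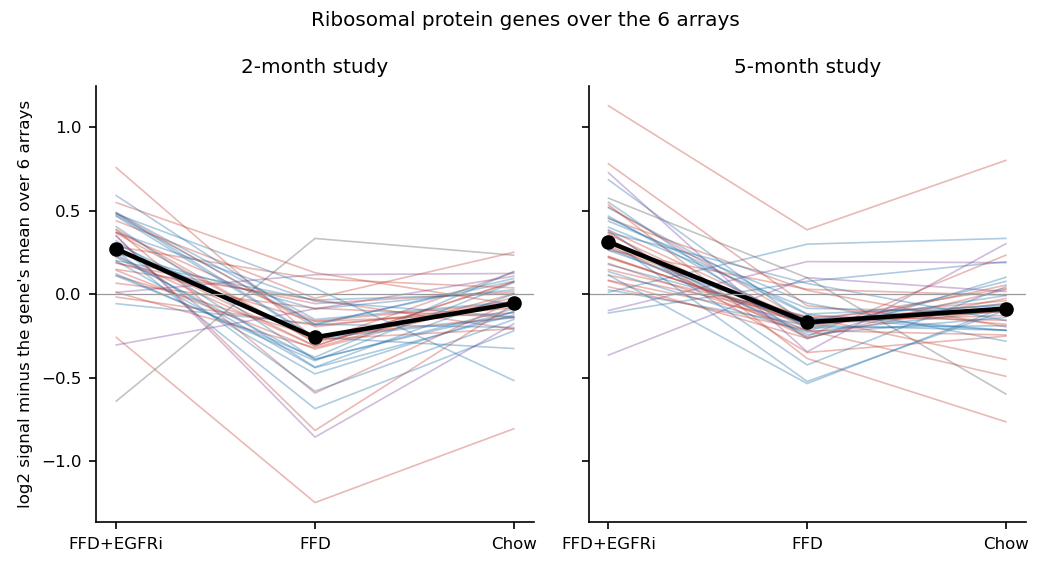
Log2 signal of each of the 45 genes above the floor on all arrays, minus the gene's mean over 6 arrays, on the 3 arrays of each study; red is large subunit, blue small subunit, purple paralogs, grey Rps19bp1, and the black line is the median. The median is highest with canertinib in both studies, 0.27 and 0.31, and lowest on fast food alone, -0.26 and -0.17.

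The differences were also narrower than those of other genes with mean signals between these genes' quartiles. The 45 genes compared were not themselves limited to that range. Between canertinib and fast food alone, the SD of the differences at 2 months was 0.383 over 45 of these genes, against 0.689 over 1871 other genes. At 5 months the SDs were 0.318 and 0.564. Between the chow arrays the SDs were 0.368 over these genes and 0.311 over the others. The first of these includes Rpl27a at 1.61, far outside the quartiles of -0.15 and 0.08 of the 45 genes. The order of the 2 SDs therefore leans on that gene. Across the 45 genes the 2-month and 5-month differences had a Pearson r of 0.478, and across 9874 genes above the floor on all arrays 0.476. Genes are not independent replicates, since all of them share the same arrays.

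The differences varied with the probe sets used. Of the 18 genes read by a probe set without a suffix for shared sequence, 13 were above the floor on all arrays, with medians of 0.35 at 2 months and 0.48 at 5 months between canertinib and fast food alone. The 32 genes read by a set with such a suffix, all above the floor, had medians of 0.57 and 0.49. When sets with a suffix were left out for every gene, 27 genes remained, and 6 at 2 months and 5 at 5 months were at least 1.5-fold higher. With every set used, 10.9% and 8.22% of all measured genes were. The 27 genes had medians of 0.12 and 0.20 with the 5 genes at the floor counted as 0, and 0.21 and 0.27 over the 22 measured. The suffixes were _a_at, _s_at and _x_at. The suffix _a_at, as for Rpl22l1, marks a set shared by transcripts of the same gene. Sets with _s_at or _x_at can take up transcripts of related genes or pseudogenes, of which ribosomal proteins have many. How much of the signals these contribute was not tested. The 46 further probe sets of these genes above the floor on an array gave medians of 0.54 and 0.48, and 98 sets shared with other symbols gave 0.55 and 0.39.

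Other genes of translation were set beside them from lists. Of 17 measured genes with other TOP mRNAs, 15 were higher with canertinib than with fast food alone at 2 months and 14 at 5 months, with medians of 0.35 in each. In the limma fit 0 were called, and 7 were higher and 0 lower at an unadjusted p under 0.05. Eef1d, a subunit of the exchange factor of elongation, differed by 0.85 and 1.07 with an adjusted p of 0.0665. Eef2, the translocation factor, differed by 0.80 and 0.58. The 33 initiation factors had medians of 0.07 and 0.16, and 51 ribosome biogenesis genes 0.18 and 0.21. Limma called 0 genes of these lists, with 3 and 8 higher and 1 and 1 lower at an unadjusted p under 0.05.

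Proteins of the mitochondrial ribosome, which are separate gene products, did not show the same differences. Their medians over 76 genes were -0.23 at 2 months and -0.00 at 5 months, with 18 and 37 higher. Limma called 0, and 3 were higher and 7 lower at an unadjusted p under 0.05. Over 89 respiratory chain subunits the medians were -0.33 and -0.20, with 0 called, 4 higher and 28 lower. Of 13 measured genes of the S6 kinase and mTORC1 axis, 4 were higher and 7 lower at 2 months and 6 higher and 7 lower at 5 months, with medians of -0.19 and -0.08. Limma called 0 of them, and 2 were higher and 2 lower at an unadjusted p under 0.05. The highest of these in both studies was Eif4ebp1, an inhibitor of cap-dependent initiation that mTORC1 phosphorylates, with differences of 0.86 and 0.82 and an adjusted p of 0.0756.

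**Figure D5:**
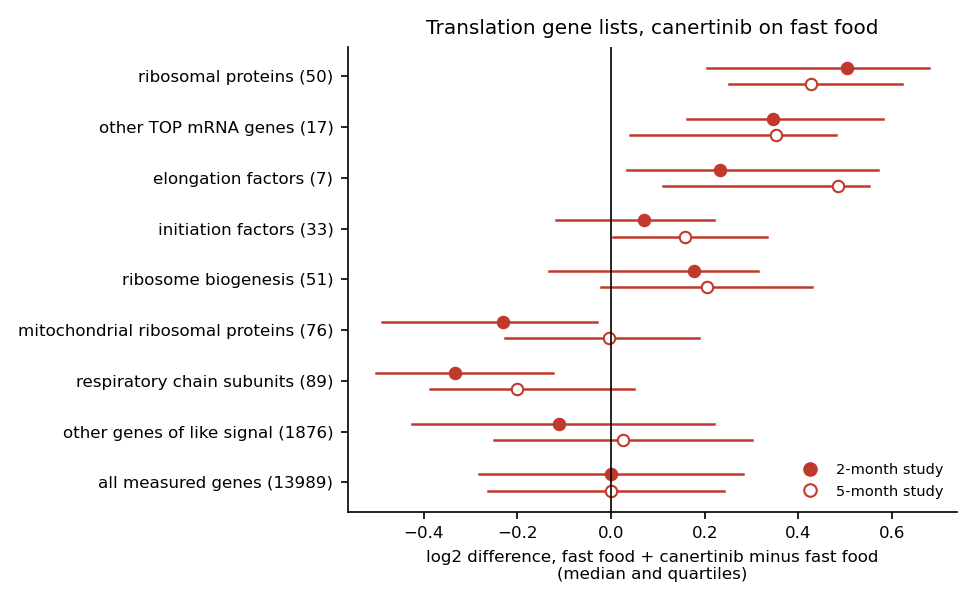
Median log2 difference between fast food with canertinib and fast food alone, with quartiles as lines, for gene lists with the number of genes in brackets, in the 2-month (filled) and 5-month study (open). Of the lists plotted, which leave out cell type markers, ribosomal proteins have the highest 2-month median, 0.50, and respiratory chain subunits the lowest, -0.33. At 5 months the 7 genes listed as elongation factors have the highest median, 0.49 (0.23 at 2 months), and ribosomal proteins have 0.43. That list also holds Eef2k, Eef1e1 and Eef1akmt1, which are named for elongation factors but are not elongation factors.

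Markers of other cells and a measure of RNA quality differed between the same arrays. Summed signals of 9 measured neutrophil markers, of 12 listed and with Camp at the floor, were 89517 with canertinib, 5705 on fast food alone and 3440 on chow at 2 months. They were 85597 with canertinib, 7714 on fast food alone and 4113 on chow at 5 months, and limma called 4 of the 9 higher with canertinib than with fast food alone. Summed hepatocyte markers were 354946, 288845 and 241324 at 2 months in the same order, and 285719, 210327 and 276503 in the 5-month study. All 6 hepatocyte markers were higher with canertinib than with fast food alone in both studies. Their median differences were 0.26 and 0.47, where the ribosomal protein genes had 0.50 and 0.43. Summed signals of 10 macrophage markers were 33451, 25063 and 11318 at 2 months and 31263, 26930 and 11413 at 5 months in that order of groups. Of 7 B cell markers, 3 were higher and 4 lower with canertinib than with fast food alone in each study, with medians of -0.05 and -0.06. Their summed signals were 7309, 6272 and 6419 at 2 months and 7921, 5646 and 6143 in the 5-month study. Of these sums, Ighm alone gave 3337 with canertinib and 1619 on fast food alone at 2 months, and 4741 with canertinib and 1726 on fast food alone at 5 months. The log2 signal of the 3′ minus that of the 5′ actin probe set, a measure of RNA or label quality, was 1.19 with canertinib, 0.85 on fast food alone and 0.94 on chow at 2 months, and 1.12, 0.98 and 0.85 at 5 months. For Gapdh the same measure was -0.20, -0.30 and -0.18 at 2 months and -0.14, -0.22 and -0.09 at 5 months in that order. The Gapdh value was highest on chow in both studies. The part of these markers and measures in the ribosomal protein differences was not tested.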

How the data were processed

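MAS5 is the tool that the submitters' processing notes name, with no version. The authors deposited intensity values on a linear scale, one per probe set. Judged by those values, the arrays share a mean of 500 once the extreme 2% of probe sets at each end are dropped. Arrays have no read depth, and their number, 1 per group, limits the precision. Of 45101 probe sets, 34958 had 1 gene symbol in the platform annotation, 932 several and 9211 none. Each gene was read by its probe set with 1 symbol and the highest mean signal. Signals were raised to 221.4, the 50th percentile, and log2 transformed. Genes above it on at least 1 array were measured.

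Differences of single arrays have no test. The limma fit (lmFit and eBayes with trend, log2 signal on treatment and study) used all 13989 measured genes, with Benjamini-Hochberg adjustment. It was also run on simulated data with the same noise for every gene, equal drug effects in both studies and no study effect. Those settings are simpler than these arrays, so that run cannot show how the fit performs on them. Groups came from the sample titles. Genes named are the 6 highest and 6 lowest by mean difference of canertinib against fast food, the 4 highest and lowest of the other comparisons, the brightest and dimmest, those 2-fold different, at the floor, in the stalk or paralogs, and 10 set by name; from other lists up to 3 genes. Rps10, Rpl35's probe sets and Rps27 were described further after their values were seen. The members and lists were chosen with earlier results of these data known. Alternatives were other normalizations, floors, probe set rules and fits. Sequences are from RefSeq, GRCm38.p6. Python 3.11.15, NumPy 2.4.6, pandas 2.3.3, matplotlib 3.10.9, R 4.3.3 and limma 3.58.1 were used.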

Additional observations from a re-analysis of the deposited data

Results flagged for a closer look

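Differences with opposite signs in the 2-month and 5-month studies, at least one of them past 1.5-fold, were found for 4 genes, and in each case the difference between studies was not tested. Rps19bp1 differed by -0.97 at 2 months and 0.48 at 5 months between canertinib and fast food alone, and by -0.87 and 1.17 between canertinib and chow. Rps27 differed by 0.95 and -0.29 between canertinib and fast food alone. Rpl35 differed by -0.76 and 0.11 between fast food alone and chow. Rps4l differed by -0.73 and 0.011 between canertinib and fast food alone and by 0.73 and -0.22 between fast food alone and chow, all of them bounds set by the floor.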

How the results depend on the processing

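The only pairing of treatments was by study, and it entered the limma fit as a block; without that block Rpl22l1 had an adjusted p of 0.153, against 0.0319. With 1 array a group, none was left out. Differences of canertinib from fast food alone, in the order 2 and 5 months: with probe sets with a suffix left out, the medians were 0.12 and 0.20 over 27 genes, 5 of them at the floor and counted as 0, or 0.21 and 0.27 over the 22 measured, with 6 and 5 genes at least 1.5-fold higher, 1 lower at 5 months, and 0 and 0 at least 2-fold higher. There limma called 0 genes, and 5 were higher and 2 lower at an unadjusted p under 0.05. Rpl22l1, whose only probe set has a suffix, was left out and could not be called. With every set used, 10.9% and 8.22% of all measured genes were at least 1.5-fold higher. At an unadjusted p under 0.05 by limma, 7.24% of them were higher and 7.53% lower. Rpl35 turned at 5 months, to -0.047 against fast food alone and -0.22 against chow; its only such probe set is the dimmest. With that choice the medians against chow were 0.00 and 0.094, or 0.096 and 0.20 over the measured genes, with 2 and 4 genes higher and 2 lower at 2 months, and 5 higher at an unadjusted p under 0.05. Fast food against chow then had a median of -0.038 at 2 months, 0 genes at least 1.5-fold lower in each study and 1 lower at an unadjusted p under 0.05, and the chow pair had 1 gene lower. With the mean over probe sets, the 2-month median of canertinib against fast food was 0.40, with 11 and 8 genes higher and 0 called by limma, and against chow the 2-month median was 0.20, with 2 and 6 higher. Limma also called 0 genes higher without the trend and without the study block, and 2 after centring on other genes of like signal. That centring gave a 2-month median of 0.62 with 6 genes at least 2-fold higher, and 4 and 0 genes lower for fast food against chow. Quantile normalization gave a 5-month median of 0.29 against fast food and a 2-month median of 0.17 against chow. It gave 2 genes higher and 4 lower at 2 months for fast food against chow, 2 higher in the chow pair, and at an unadjusted p under 0.05 5 lower for fast food against chow and 1 lower for canertinib against chow. Median centring gave 3 genes higher in the chow pair. Without a floor, 3 genes were lower at 5 months with canertinib than with fast food; against chow 3 were lower at 2 months and 3 at 5 months. Fast food against chow then had 4 lower at 2 months and 2 higher and 2 lower at 5 months, and the chow pair 3 higher and 5 lower. With a floor at the 60th percentile, 1 gene was lower at 2 months with canertinib, and 0 and 0 were higher for fast food against chow. The causes were not tested, other than that fewer genes remain without suffix sets. The medians of canertinib against fast food stayed above 0 under every alternative run. Pooled RNA on 1 array per group leaves variation between mice unmeasured.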
